A study of Drosophila melanogaster with 7 samples.

Results

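The genes described here are 8 genes of the piRNA pathway of Drosophila melanogaster, namely piwi, AGO3, SoYb, mael, del, tej, cuff and CG13741, out of 2366 genes in the authors' deposited comparison. They were picked by symbol from that table, with its fold changes already known, so their values in this comparison are given as a description and no test of them is offered. RNA was measured in the dissected central nervous system (central brain with ventral nerve cord) of larvae in the third instar, 4 days after egg lay at 25 °C. The control larvae (3 libraries) had the genotype elav-GAL4; + and so carried the neuronal driver alone, and the knockdown larvae (4 libraries) had elav-GAL4>UAS-ISWI RNAi, the same driver with a hairpin against Iswi. Iswi encodes the ATPase of the ISWI chromatin remodelling complexes. Each library pooled 40 brains, which hold glia and neural stem cells besides the neurons in which elav-GAL4 is mainly active. The deposited table heads its control attp2, a name that the genotype labels do not use, and the stock or insertion site of the hairpin is not stated in the sources used here.

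piRNAs are small RNAs that guide Argonaute proteins of the PIWI clade to transposon transcripts. In flies the pathway is best known from ovary and testis. There, long precursors are transcribed from piRNA clusters and exported, cut and trimmed in the cytoplasm, and loaded onto Piwi, which silences transposons in the nucleus, or onto Aubergine and Argonaute 3, which amplify piRNAs by cutting sense and antisense transcripts in turn (the ping-pong cycle) in perinuclear granules called nuage. In the larval brain the pathway is known above all from brain tumours of l(3)mbt mutants, in which germline genes including piRNA factors are switched on.

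The authors' deposited table gives for each gene a mean normalised count over all 7 libraries, a log2 fold change of knockdown over control, a p and an adjusted p, and lists genes with p under 0.1. A gene is called higher or lower here when the authors' adjusted p is under 0.05. Standard errors and 95% intervals were worked out from each fold change and its p. No values of single libraries were used, so depth and the overlap between libraries are unknown. The targeted gene Iswi, per the authors' deposited table, fell by 2.03 (log2), to 24.6% of control. By the authors' adjusted p, 4.65% of the 10775 genes tested were called, 2.06% higher and 2.59% lower. The authors' deposited table calls 4 of the 8 piRNA pathway genes higher and 4 lower, and since those calls were known when the genes were picked, nothing is read from that share. At an adjusted p under 0.01, which 2.92% of all genes tested met, 7 of the 8 were called, all but cuff, and at one under 0.1, met by 6.38%, all 8 were. A Bonferroni threshold, met by 1.58%, kept 5 (CG13741, piwi, SoYb, AGO3 and mael). Asking for a change of at least 1.5-fold besides, met by 1.91%, removed del, and asking for a mean count of at least 50, met by 4.08%, removed tej. In whole-brain RNA, fewer cells of a type and less RNA per cell cannot be told apart.

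**Figure D1:**
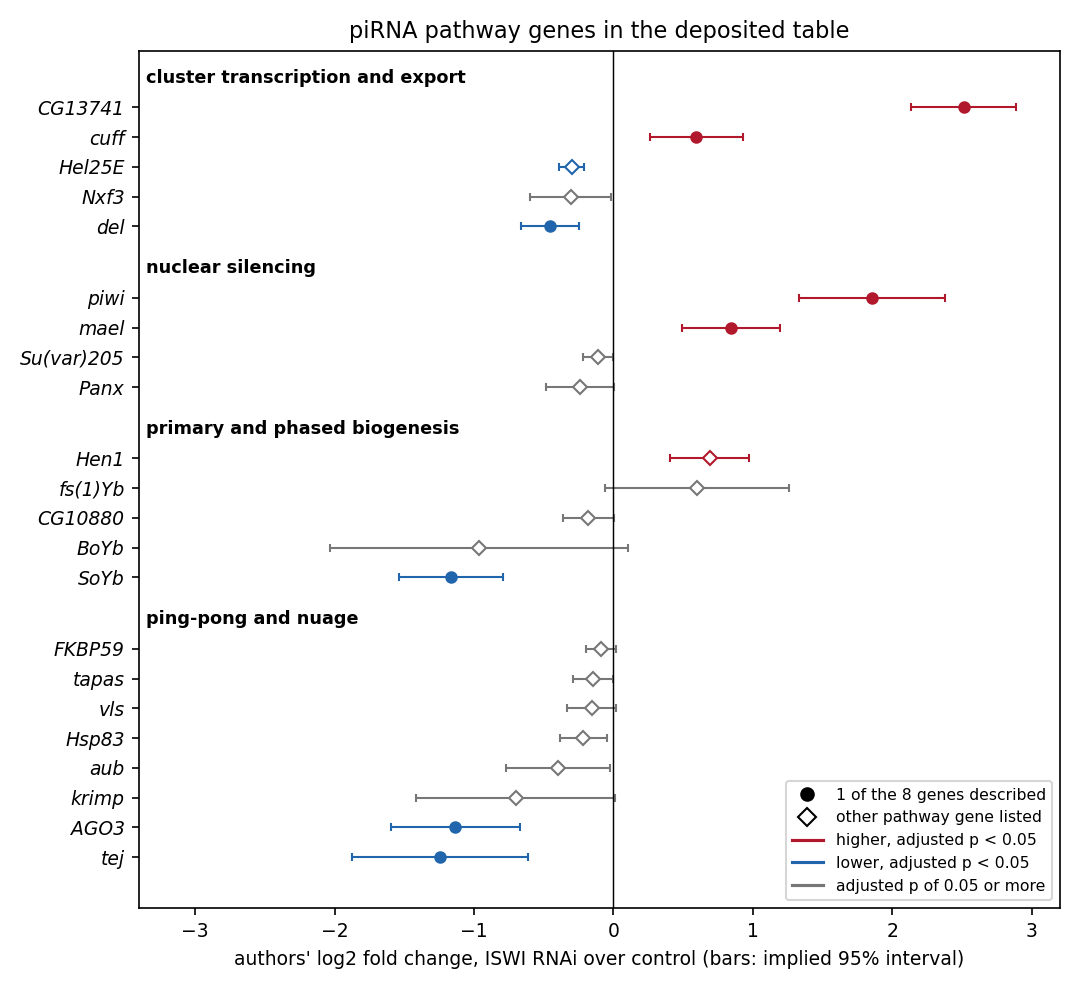
Log2 fold change (ISWI RNAi over control, from the authors' deposited table) on the horizontal axis, with its implied 95% interval, for the 8 genes (filled circles) and 14 other piRNA pathway genes in the table (open diamonds), grouped by role. CG13741, cuff, piwi and mael lie to the right of 0 and del, SoYb, AGO3 and tej to the left. A negative value was held by 12 of the 14 others, and by 1208 of all 2312 listed genes counted.

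Among genes for transcription and export of piRNA precursors, CG13741 and cuff were higher and del was lower. CG13741 (FBgn0033374, chromosome 2R, 9092506 to 9094658, build BDGP6) is named Boot in the reference annotation, for Bootlegger, a protein that works with the export factor Nxf3 to bring precursors to nuage. Per the authors' deposited table it rose by 2.51 (log2), or 5.70-fold (standard error 0.19, adjusted p 1e-35). That fold change and its mean normalised count of 188.9 in the authors' deposited table imply a mean of 51.2 in control and 292.1 in knockdown, if the fold change is the ratio of the group means. Cutoff, encoded by cuff (FBgn0260932, chromosome 2R, 11886067 to 11887603), binds cluster transcripts and protects them from processing as ordinary mRNA. In the authors' deposited table cuff rose by 0.59 (standard error 0.17, adjusted p 0.016), with implied means of 95.1 and 144 in control and knockdown. Deadlock, the product of del (FBgn0086251, chromosome 2L, 21145137 to 21148546), links Cutoff to the chromatin reader Rhino on clusters. del, per the authors' deposited table, fell by 0.46 (standard error 0.11, adjusted p 0.00082), from an implied mean of 523 to 381. Both partners therefore lay on opposite sides of 0, and their 95% intervals from the authors' deposited table ran from 0.26 to 0.93 for cuff and from -0.66 to -0.25 for del.

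Of 12 other genes of this group 2 (16.7%) were listed and 1 (8.33%) was called, beside 21.5% and 4.65% of all genes tested. Hel25E, the fly UAP56 helicase of mRNA and piRNA precursor export, fell by 0.30 (adjusted p 4.7e-09, authors' deposited table), at a mean normalised count of 9893. Nxf3, the export factor that CG13741 works with, had a log2 fold change of -0.31 and an adjusted p of 0.3 there, so it did not pass the test. rhi and moon, the Rhino and Moonshiner genes, were not in the authors' deposited table, which means a p of at least 0.1 or no test.

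The CG13741 locus overlaps a second gene that was also higher. CG8080, named Nadk2 in the reference annotation (a mitochondrial NAD kinase), lies downstream on the same strand, and its first exon covers 388 exonic bases of the end of CG13741, or 20.1% of the exonic bases of CG13741. CG8080, per the authors' deposited table, rose by 0.56 (standard error 0.11, adjusted p 2.3e-05). The implied gain in mean normalised count was 240.9 for CG13741 and 133 for CG8080. The sources used here do not say how reads in the shared stretch were assigned, so the share of the CG8080 value that comes from CG13741 transcripts, or the reverse, cannot be told apart. The other listed genes within 10 kb of CG13741, Dbp45A and snoRNA:Me28S-A982a, stood at -0.16 and -1.38 (log2), and neither passed the test (adjusted p 0.37 and 0.4, authors' deposited table).

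**Figure D2:**
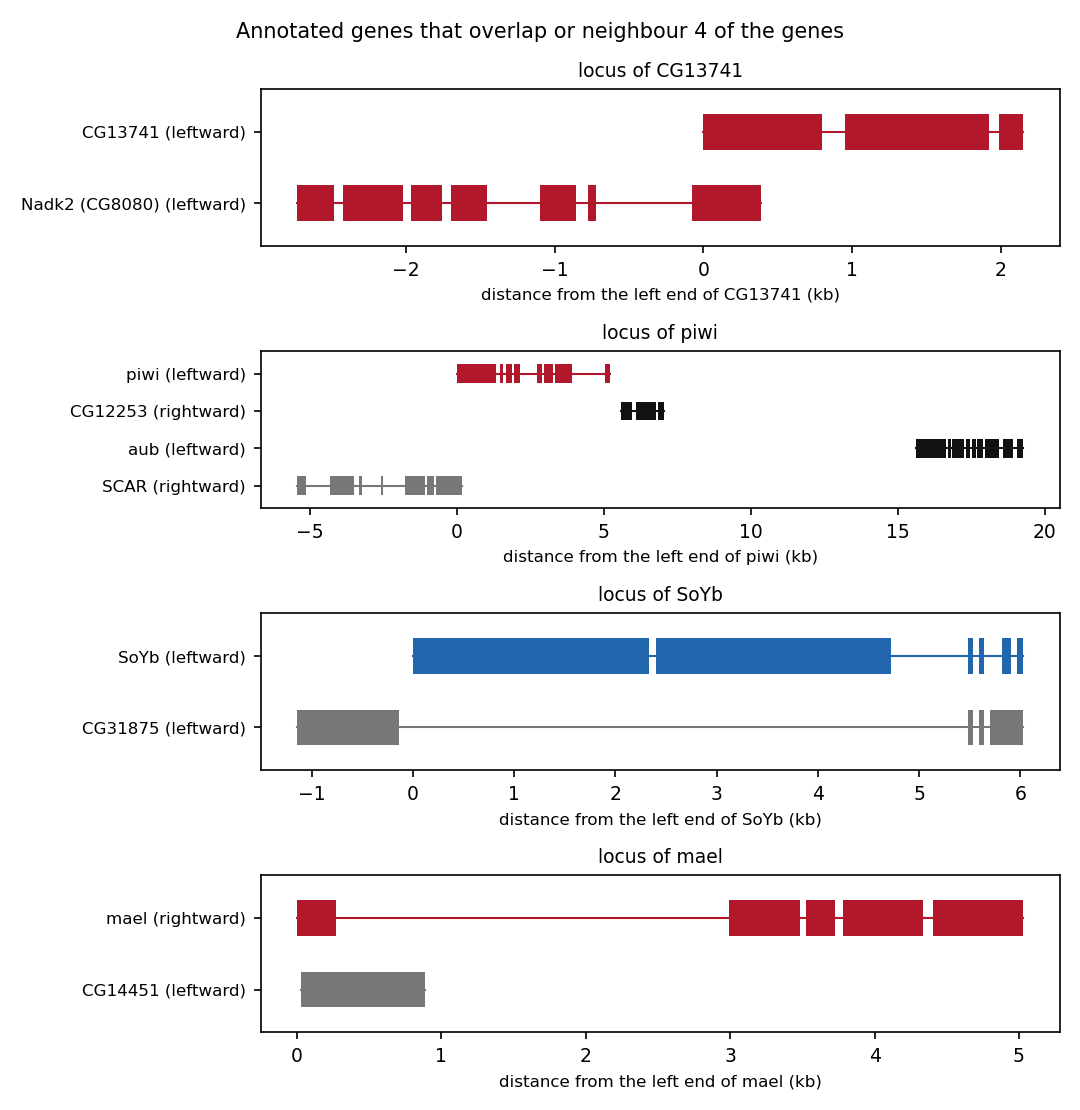
Gene models (boxes are exons, lines introns) around CG13741, piwi, SoYb and mael against the distance in kb from the left end of each. Red marks genes called higher, blue lower, black listed but not called and grey not listed. CG13741 and Nadk2 (CG8080), which share 388 exonic bases, are both red, and piwi and its neighbour aub differ in colour.

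Of the factors of nuclear silencing, piwi and mael were higher. piwi (FBgn0004872, chromosome 2L, 10982205 to 10987420) encodes the nuclear Argonaute that directs heterochromatin to transposons. In the authors' deposited table piwi rose by 1.85 (log2, standard error 0.27, adjusted p 1.1e-09), or 3.61-fold, and its implied mean normalised count went from 39.4 to 142. Maelstrom, the product of mael (FBgn0016034, chromosome 3L, 22721203 to 22726234), is needed for transcriptional silencing downstream of Piwi. mael, per the authors' deposited table, rose by 0.84, or 1.79-fold (standard error 0.18, adjusted p 0.00019), from an implied mean of 83.5 to 150.

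The other 8 genes of nuclear silencing held 0 calls by the authors' DESeq2 fit, where 4.65% of all genes tested were called. Among these 8, 1 had an unadjusted p under 0.05. Of these, the authors' deposited table lists Panx (Panoramix, which links Piwi to the silencing machinery) at -0.24 and the gene of the heterochromatin protein HP1a at -0.11, and their adjusted p was 0.35 and 0.31.

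SoYb, AGO3 and tej, which act in the cytoplasm in piRNA biogenesis and the ping-pong cycle, were lower. SoYb (Sister of Yb, FBgn0051755, chromosome 2L, 9996706 to 10002736) encodes a Tudor domain protein of germline piRNA biogenesis. Per the authors' deposited table SoYb fell by 1.16 (standard error 0.19, adjusted p 1.6e-07), to 44.7% of control, with implied means of 215 and 96.0. AGO3 (FBgn0250816, chromosome 3L, 23554593 to 23689640) encodes the Argonaute that carries mostly sense piRNAs in the ping-pong cycle. AGO3, per the authors' deposited table, fell by 1.13 (standard error 0.24, adjusted p 0.00013), to 45.6% of control, with implied means of 97.5 and 44.4. tej (tejas, FBgn0033921, chromosome 2R, 14300103 to 14302353) encodes a Tudor domain protein of nuage that works with Vasa and Spindle-E. In the authors' deposited table tej fell by 1.24 (standard error 0.32, adjusted p 0.0046), to 42.3% of control, from an implied mean of 44.9 to 19.0. Intervals implied by the authors' deposited table overlapped widely for these 3 genes, from -1.54 to -0.79 for SoYb, from -1.60 to -0.67 for AGO3 and from -1.87 to -0.61 for tej. tej had the lowest mean count and the widest interval of the 8.

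**Figure D3:**
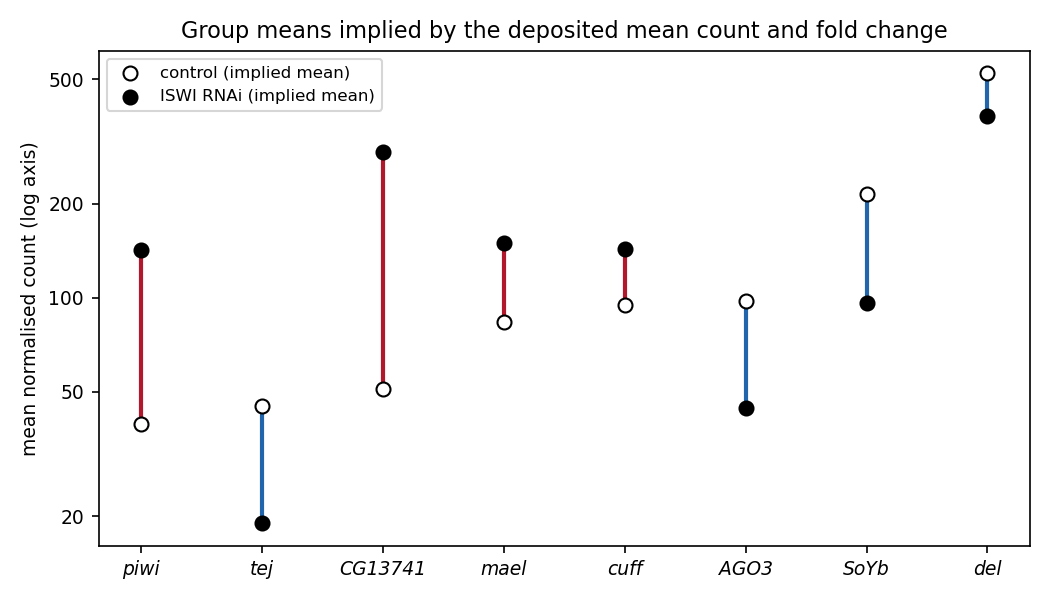
Mean normalised count (log axis) implied for control (open) and ISWI RNAi (filled) in each of the 8 genes, ordered by the control value. Red lines rise and blue lines fall. Control values run from 39.4 for piwi to 523 for del, and CG13741 has the longest line.

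The 13 other genes of primary and phased biogenesis held 1 call, Hen1, or 7.69%, beside 4.65% of all genes tested. Hen1, which methylates the ends of piRNAs and siRNAs, rose by 0.69 (standard error 0.14, adjusted p 0.00012, authors' deposited table). CG10880, named daed in the reference annotation (Daedalus, a partner of Gasz on mitochondria), was listed at -0.18 (adjusted p 0.34, authors' deposited table). The 13 other ping-pong and nuage genes held 0 calls by the authors' DESeq2 fit, where 4.65% of all genes tested were called. Among these 13, 3 had an unadjusted p under 0.05. In the authors' deposited table the listed ones were krimp (Krimper, which brings Argonaute 3 and Aubergine together) at -0.70, aub at -0.40, Hsp83 at -0.22, vls (Valois, of the arginine methylation complex) at -0.16, tapas (a tejas paralogue) at -0.15 and FKBP59 (a co-chaperone) at -0.09. Their adjusted p there lay between 0.15 and 0.46.

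Over the pathway genes other than the 8, 46 in number, 14 were listed, 2 with a positive and 12 with a negative fold change. Among all 2312 listed genes counted, 1104 were positive and 1208 negative. Of the 46 other pathway genes, 2 (4.35%) were called, beside 4.65% of all genes tested. From the authors' deposited table, the median log2 fold change of those 14 was -0.20, against -0.11 over all listed genes, and 30.4% of the 46 were listed against 21.5% of all genes tested. Fold changes were recentred on the median of all listed genes (-0.11) or on that of the abundant ones (mean count 1000 or more, -0.13). This left 11 and 10 of the 14 negative. No sign among the 8 could change, since both shifts were smaller in size than the smallest of their fold changes (-0.46, del). The 8 genes left out of this count were picked with their calls known, which lowers the share among the rest. Nothing is therefore read from that share or from the signs. The germline helicase gene vas and the nuclease gene zuc were not among those listed, and neither were flam, the source of a piRNA cluster transcript, and Ste12DOR, a Stellate gene, which piRNAs target or come from.

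Of the pathway's small protein families, the PIWI clade and the Yb family were examined. In the PIWI clade, piwi rose, AGO3 fell, and aub (Aubergine, FBgn0000146) was listed at -0.40 (standard error 0.19, adjusted p 0.29, authors' deposited table). As implied mean count per kb of exon, piwi, aub and AGO3 stood at 12.8, 39.0 and 30.6 in control and at 46.3, 29.6 and 14.0 in knockdown. piwi thus made up 15.5% of the summed level of the 3 Argonautes in control and 51.5% in knockdown, and AGO3 37.2% and 15.5%, and the sum itself stood at 82.5 and 89.9 per kb. No error can be given for these shares, which are computed from the table's means. They restate the fold changes with which piwi and AGO3 were picked, so nothing is read from them.

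In the Yb family of the authors' deposited table, SoYb fell, BoYb (Brother of Yb) was at -0.96 (standard error 0.54, adjusted p 0.41), and fs(1)Yb (Yb itself, of somatic gonad cells) was at 0.60 (standard error 0.34, adjusted p 0.41). The latter values did not pass the test. SoYb held 77.8% of the implied level per kb of this family in control and 59.5% in knockdown. The family sum went from 56.3 to 32.9 per kb. Since SoYb was picked with its fold change known, nothing is read from these levels.

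piwi and aub are close neighbours. They lie on the same strand of 2L, 10398 bases apart, with 1 gene between them, CG12253, which the authors' deposited table lists at -0.20 (adjusted p 0.36). Both of these genes thus had a negative value beside the positive one of piwi. piwi overlaps SCAR on the opposite strand over 191 exonic bases (6.22% of its exonic bases), and SCAR was not listed.

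Other members overlap their neighbours as well, and the sources used here do not say whether counting used strand. mael shares 246 exonic bases (11.4%) with CG14451, which lies on the opposite strand over its first exon, and 1 base with CG14450. SoYb and CG31875 start at the same base on the same strand and share 247 exonic bases (5.03% of those of SoYb). cuff shares 36 bases with ERp60 and del shares 10 with CG9253 (pths in the reference annotation), both on the opposite strand. Of these partners the authors' deposited table lists CG9253, at -0.16 (adjusted p 0.18), and not the rest, apart from CG8080. AGO3 and tej overlap no other gene. Of 48 annotated genes within 10 kb of a member, 10 were listed and 1, CG8080, was called. Over all genes tested 21.5% were listed and 4.65% called, and how many of the 48 were tested is not known here. The ion channel gene Ih, which lies 8 bases from tej, was at 0.18 (adjusted p 0.26, authors' deposited table). CG13185, 482 bases from cuff, was at 0.22 (adjusted p 0.063) there. Trp1 and CG4747 near SoYb stood at 0.12 and 0.08, and Dap160 near del at -0.14, with adjusted p between 0.29 and 0.44 in that table.

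AGO3 stands apart from the other 7 in its locus. It spans 135048 bases with 3182 exonic ones, 106 annotated transposable element insertions lie inside it, and they cover 70.5% of the span. Across 13945 protein-coding genes on the main chromosome arms, 6.55% hold at least 1 such insertion, and none but AGO3 holds as many as 106. Within exons the insertions cover 166 bases (5.22%), so reads there can match other copies. piwi and mael each hold 3 insertions, all outside their exons, and the other 5 members hold none. Among the 51 protein-coding genes with at least 10 insertions, 18 were listed, and AGO3, alpha-Cat, Myo81F and Cadps were called lower and tyn higher (log2 fold changes of -1.13, -0.25, -1.10, -0.39 and 0.33, authors' deposited table). Calls among protein-coding genes with fewer than 10 insertions were 248 lower and 188 higher, and over all genes tested 2.59% were lower and 2.06% higher. How many of the 51 were tested is not known here, and nothing is read from their calls. On 3L beyond 23 Mb, a limit chosen after the values were seen, AGO3 was 1 of 13 lower calls beside 1 higher, the noncoding RNA CR45181, and the number of genes tested there is not known. No member lay within 2 Mb of the centromeric end of its arm. That end was taken as the last annotated gene on 2L and 3L and as the start of 2R. Where heterochromatin begins on each arm was not examined, so the distance does not place any member outside it. Of the 8, 3 lie on 2L, 3 on 2R and 2 on 3L, and none on the X.

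**Figure D4:**
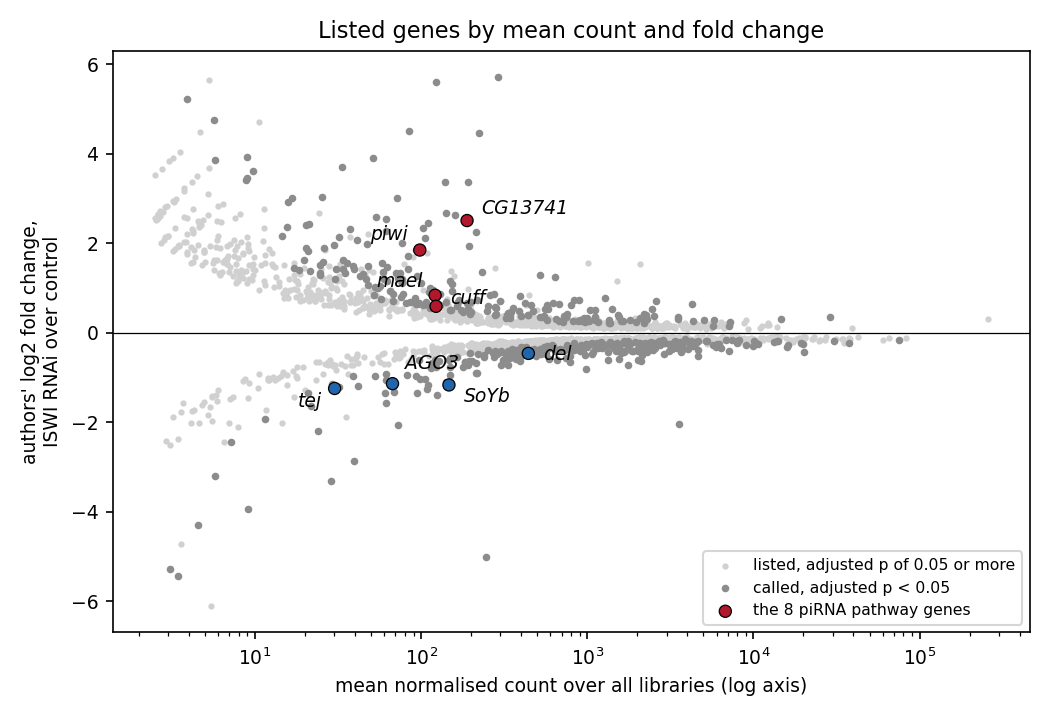
Each point is 1 gene of the authors' deposited table, at its mean normalised count (log axis) and log2 fold change. Light grey points are listed genes that were not called, dark grey ones were called, and the 8 piRNA pathway genes are named, red for higher and blue for lower. They lie between mean counts of 30.1 and 442, where CG13741 and piwi are among the higher positive values.

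All 8 genes had mean counts below the median of the called genes, though del lay close to it. Mean normalised counts of the 8 in the authors' deposited table ran from 30.1 (tej) to 442 (del), with a median of 122 against 459 for all called genes. Levels of genes that were tested but not listed are not known here. Per kb of exon the order was del (134), CG13741 (97.7), cuff (94.9), mael (56.4), piwi (31.9), SoYb (29.9), AGO3 (21.1) and tej (15.5), against a median of 251 over all listed genes. With no value per library, it cannot be said which neighbours in that order differ beyond their spread. Called genes with a mean count between 30 and 500 in the authors' deposited table numbered 216 (128 higher, 88 lower) and had a median absolute log2 fold change of 0.76. The standard errors of the 8 ran from 0.11 (del) to 0.32 (tej). The median absolute log2 fold change of the 8 was 1.15, and 5 of them changed by at least 1 (log2) in either direction. That size helped to bring them to notice and is no finding.

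The other small RNA pathways of the fly use miRNAs and siRNAs. They gave 1 call among 11 genes of the comparison list, or 9.09%, beside 4.65% of all genes tested. loqs, the double-stranded RNA binding partner of Dicer, fell by 0.62 (standard error 0.06, adjusted p 2.4e-20, authors' deposited table). The authors' deposited table lists AGO2, Dcr-2 and gw at -0.13, 0.10 and -0.12 (adjusted p 0.42 each) and does not list AGO1, Dcr-1, drosha or pasha.

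Markers of cells in which the piRNA pathway is usually active were also examined. Of 12 germ cell markers 5 (41.7%) were listed, all with a positive fold change. Over all genes tested 21.5% were listed, 1104 with a positive and 1208 with a negative fold change. Of the germ cell markers 0 were called by the authors' DESeq2 fit and 3 had an unadjusted p under 0.05. The authors' deposited table has nos, otu and zpg at 1.85, 1.58 and 1.55 with mean normalised counts of 4.28, 6.41 and 6.77, while bgcn was at 0.67 with a mean of 53.4, and stwl at 0.14 with a mean of 829. vas and bam, defining markers of germ cells, were not listed, so their levels are not known here. Of 6 somatic gonad markers fs(1)Yb alone was listed. Of 15 spermatocyte markers mia fell by 0.62 (adjusted p 0.019) and twe stood at -0.25 (adjusted p 0.44), both from the authors' deposited table. Together these lists gave 1 call among 33 genes, or 3.03%, beside 4.65% of all genes tested. They were chosen with earlier results of these data known, so nothing is read from this share or from the signs. The part of gonad or germline transcripts in the values of the 8 genes was not tested.

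Among markers of other tissues, those of hemocytes and muscle held calls. Those of ring gland, neuroblasts, neurons, glia and fat body held none. The authors' deposited table lists all 5 hemocyte markers, Hml, He, srp, Pxn and NimC1, at 1.54, 1.38, 1.36, 1.25 and 1.01 (log2). It calls 2 of them, NimC1 and Pxn (adjusted p 0.024 and 0.046), while standard errors of Hml, He and srp were 0.63, 0.73 and 0.51. It lists 4 of 5 muscle markers, Mhc, Unc-89, bt and sls, at 0.71, 0.64, 0.30 and 0.28, and calls 2 of them (bt and Unc-89). These are 40% of each list, beside 4.65% of all genes tested. The lists were chosen with earlier results of these data known, so nothing is read from these shares. Of 5 ring gland markers the authors' deposited table lists nvd, sad, phm and spok at -0.43, -0.40, -0.34 and -0.24, and 0 were called by DESeq2, with 3 at an unadjusted p under 0.05. Of 6 neuroblast markers dpn was listed at -0.19, and none of 6 neuron, 5 glia and 4 fat body markers was. Since levels are given for listed genes alone, the tissue cannot be checked against the neuron markers. Their part in the values of the 8 genes was not tested. Each group is 1 genotype, so the knockdown and other differences between the stocks cannot be told apart.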

How the data were processed

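Per the labels' protocols, 3 control and 4 ISWI knockdown libraries were made with a directional kit and sequenced as single reads of 100 bases. The submitters' processing notes name STAR 2.5.0b, DESeq2 and build BDGP6. The deposited table gives, per the file headers, a base mean (a signal: the authors' mean of normalised counts), a log2 fold change, and the authors' p-value and adjusted p-value. The sources used here do not say whether fold changes were shrunk. The deposited adjusted p-values follow Benjamini-Hochberg over 10775 tests, of which 8463 genes are not in the table and not used here. The 54 listed genes whose adjusted p is 1 were not counted.

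No model was refitted. Standard errors are the log2 fold change divided by the normal quantile of its p, taken as a Wald p. Implied group means solve the deposited mean for 3 and 4 libraries. Levels per kb use the deposited length in bases. Positions, exons and insertions come from Ensembl release 115 (BDGP6), in which all 8 members have the deposited position. The standard error and number of tests steps were run on simulated data (20 tables) made with the same formulas. That checks the code and not the assumptions. For recentring a known shift was removed there, so taking the shift from the median of listed genes was not tested. Members and lists were chosen with earlier results of these data known. Named genes are the 8 members, every listed gene of the lists, listed genes within 10 kb of a member, and Iswi. Where the text adds a gene outside this rule (alpha-Cat, Myo81F, Cadps, tyn, CR45181, overlapping genes, and list genes named as not listed, such as rhi, moon, vas, zuc, bam and AGO1), it was chosen after values were seen. Python 3.11.15, pandas 2.3.3, scipy 1.17.1 and matplotlib 3.10.9 were used. Depth per library is unknown.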

Additional observations from a re-analysis of the deposited data

How the results depend on the processing

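The authors' deposited table calls 4 of the 8 genes higher and 4 lower, and these counts stayed within 1.5 times under an adjusted p under 0.01 or 0.1, a mean count of at least 50, a change of at least 1.5-fold, and recentring of the fold changes on the median of listed genes (-0.11) or of those with a mean count of at least 1000 (-0.13). With Bonferroni adjustment 2 were lower, because that threshold is stricter. Leaving out the 6 members that overlap another gene left 0 higher and 2 lower (AGO3 and tej). All 4 higher members overlap another gene, and so do SoYb and del among the lower ones. Leaving out CG13741 alone, an alternative added after the data were seen, left 3 higher. The fold changes of the 8 genes kept their call in all 16 recentred values. Their signs could not change, because both shifts were smaller in size than the smallest of these fold changes (-0.46, del). The counts for other pathway genes (1 higher, 1 lower) did not move under the 5 alternatives run. The 1 lower germline or gonad marker, mia, dropped to 0 at an adjusted p under 0.01. No paired analysis was possible because the table holds 1 fold change per gene and no value per library; leaving out libraries was not possible for the same reason. Comparisons of protein sequences and of promoter motifs were planned and not run, since no sequences were used here. Mean counts of 30.1 to 442 limit the precision, with standard errors from 0.11 to 0.32.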
